A study of Rattus norvegicus with 24 samples.

Results

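The cytosolic ribosomal protein genes were followed in right and left ventricle of rats on 24 two-channel arrays. Members were chosen by name alone: every probe whose gene symbol is Rpl or Rps followed by a digit, Rplp0 to Rplp2, or Rpsa, without the S6 kinase genes (symbols that start with Rps6k). The rule found 69 probes for 68 genes, of 4126 named genes on the array. These were 24 genes of the small subunit, 41 genes of the large subunit and 3 genes of the acidic stalk of the large subunit. By their symbols they include a pseudogene (Rpl22-ps2) and genes named as like another member (Rpl30l2, Rpl36al1, Rpl37l1 and Rps27l). Of the 68, 67 had values on at least 2 arrays of each right ventricle group and were tested. The remaining one, Rps4x, had no value on any array. Of the 67, 64 had a value on all 18 right ventricle arrays, 66 could also be tested in the left ventricle, and Rpl30 had too few left ventricle values for that.

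The labels name 3 conditions, HYP, CHF and CON, all at 14 days, and the title of the series speaks of compensated and decompensated hypertrophy after monocrotaline injection. Right ventricle was hybridised on 6 arrays of each condition and left ventricle on 2 arrays of each. Monocrotaline, a pyrrolizidine alkaloid, damages the small pulmonary arteries, and the right ventricle then pumps against a raised pressure. The labels do not spell out HYP, CHF and CON, nor how CON rats were treated, and strain, sex, age and dose were not given. Channel 2 of every array held a reference pool, and arrays are called here by condition, ventricle and the number in their title (CHF right 12). Nothing in the labels says that each array is a separate rat, so the p-values measure the spread between these arrays.

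A cytosolic ribosome holds a small subunit, which reads the mRNA, and a large subunit, which joins amino acids and lets the new protein out through a tunnel. Their proteins are made in matched amounts and assembled on ribosomal RNA in the nucleolus. The mRNAs of nearly all of them begin with a C and a run of pyrimidines, the 5′ terminal oligopyrimidine tract, through which their translation follows growth signalling by mTOR. Growth of the heart under load draws on new ribosomes, and cardiac hypertrophy is a classical setting in which ribosome content rises.

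RefSeq promoter entries on GRCr8 were matched for 57 of the 68 genes, 11 having no entry. The start regions below are shown because the tract is the sequence feature the family shares. They run 5′ to 3′ from 25 bases before the annotated start to the 15th base of the transcript, and the capitals mark the tract, a C with at least 4 further pyrimidines. Rpl19 and Rpl37a had the smallest p-values in CHF against CON right ventricle, and Rps27 moved most closely with the other members. Rps19, Rps16 and Rpl24 have no such tract within 10 bases of their annotated start.

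Rpl19, chr10:83519039-83519078, + strand: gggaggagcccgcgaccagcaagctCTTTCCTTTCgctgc
Rpl37a, chr9:81748066-81748105, + strand: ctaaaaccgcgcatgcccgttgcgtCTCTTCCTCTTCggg
Rps27, chr2:177964592-177964631, - strand: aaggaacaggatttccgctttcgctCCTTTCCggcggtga
Rpl10, chrX:157205825-157205864, + strand: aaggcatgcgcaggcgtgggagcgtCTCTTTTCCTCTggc
Rps19, chr1:89608663-89608702, + strand: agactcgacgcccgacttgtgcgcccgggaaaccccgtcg
Rps16, chr1:92770633-92770672, + strand: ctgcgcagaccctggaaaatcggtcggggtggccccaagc
Rpl24, chr11:58128391-58128430, - strand: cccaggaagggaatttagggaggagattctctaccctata

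A tract lay exactly at the annotated first base in 22 of 57 members (38.6%), against 2.63% of all 27457 promoter entries. Within 10 bases of it, a tract was present in 41 of 57 members (71.9%) and in 28.4% of all entries. In the window from 250 bases before to 50 bases after the start, searched on both strands, CCGGAA (the core bound by ETS factors) was present in 31 members (54.4%) against 15.8% of all entries. AANATGGC, written for the YY1 motif, was found in 9 members (15.8%) against 7.36%, and TATAAA in 6 members (10.5%) against 14.3%. These are matches of letters in a window and no evidence of binding, and an annotated start can lie some bases from the one used in heart.

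The deposited value of a probe is a signed score against the reference pool. Each array's scores have a mean near 0 and an SD near 1, with an array median between -0.20 and 0.217. Every array was centred here on its median, and all levels and differences below are in array SDs, not log2 units. Scores against a pool can be compared between arrays for 1 gene, not between genes. Arrays held between 2162 and 3658 values each, the fewest on CHF right 12. The dye orientation was not given, and some arrays correlated clearly below 0 (the lowest Pearson r was -0.53, between CHF right 14 and HYP right 8), so the direction of those arrays is not settled. The 5 arrays in doubt are CHF right 10 and 14, CHF left 9, and CON left 21 and 22. For the ribosomal protein genes, values with their sign turned are therefore given beside each comparison that holds one of them. HYP right 4 was not turned, though its median r with the right ventricle arrays (-0.0321) was below that of CHF right 10 (0.0824). The direction of arrays not turned is therefore not settled either. Many ribosomal protein genes have near-identical processed copies in the rat genome, so a spot may bind more than the named transcript.

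Across the right ventricle arrays the median level of the family was highest in CON. The median score over the members, array by array, ran from 0.0735 through a median of 0.584 to 0.843 in the 6 CON arrays. In the 6 HYP arrays it ran from -0.044 through 0.304 to 0.716, and in the 6 CHF arrays from -0.329 through 0.0233 to 0.626. With CHF 10 and 14 turned, the CHF median of 0.0233 became 0.114, and over the 4 CHF arrays not in doubt it was 0.319, close to that of HYP, so CHF and HYP have no settled order. The groups overlapped: the highest CHF array was above the CON median and the lowest CON array was close to the CHF median. The SD of these array medians within a group was 0.312. In the left ventricle the 2 CON arrays gave 0.36 and 0.09, the 2 HYP arrays 1.03 and 0.129, and the 2 CHF arrays 0.385 and 0.575. With the sign turned, CON left 21 and 22 became -0.36 and -0.09, and CHF left 9 became -0.385. The order of the left ventricle groups is therefore not settled either.

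**Figure D1:**
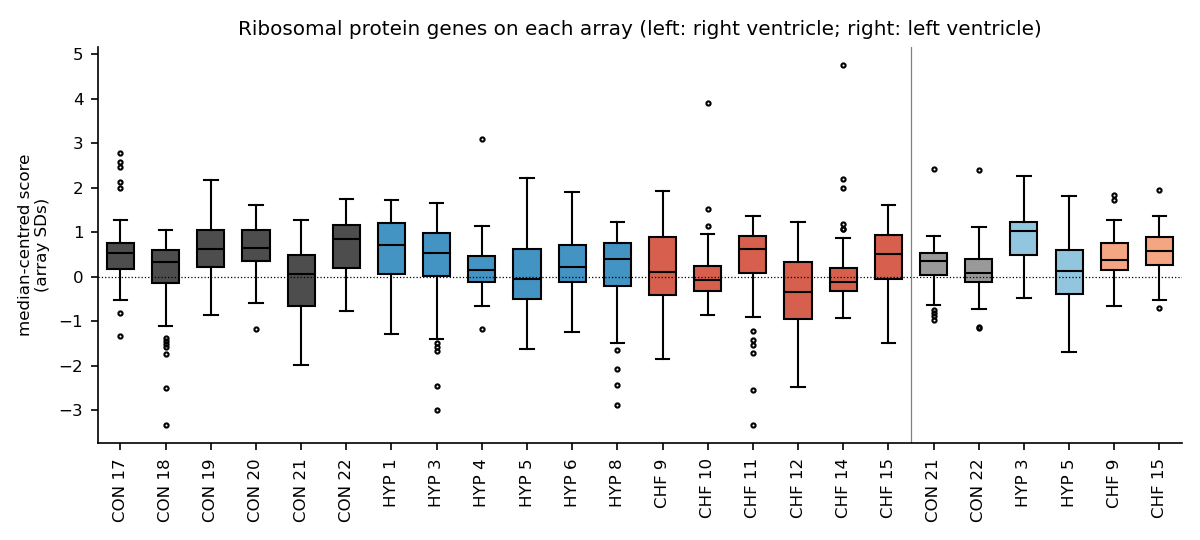
Median-centred scores, in array SDs, of the ribosomal protein genes on each of the 24 arrays. A box spans the quartiles with the median as a line, whiskers reach 1.5 times the box height and dots are single genes. The boxes of CHF right ventricle have medians from -0.329 to 0.626 and those of CON right ventricle from 0.0735 to 0.843, and single genes of CHF right 10 and 14 reach 3.91 and 4.76.

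CHF against CON right ventricle compares the group labelled CHF with its control. Most ribosomal protein genes had lower scores in CHF, each by a small amount, and none passed the test. The difference was below 0 in 58 of 67 members (86.6%), where 58.8% of all 3199 features were below 0. Most members go up and down together from array to array, as described below. Such counts, here and in the later comparisons, are therefore not counts of independent genes. The median difference over the members was -0.33, against -0.0992 over all features, and single genes ranged from -0.806 (Rps3) to 1.30 (Rplp0). With limma and Benjamini-Hochberg adjustment over all features, 0 of 67 members had an adjusted p below 0.05, while 29 features did (0.907%). At an unadjusted p below 0.05, 2 members were lower (2.99%) against 3.31% of all features, and no member had CHF and CON arrays that did not overlap (of all features, 0.406% were lower and 2.81% higher without overlap). With the sign turned on CHF 10 and 14, 52 of 67 members were below 0 (55.7% of all features) with a median of -0.357. Without these 2 arrays the median was -0.178 with 47 members below 0, and with limma's array weights -0.0857 with 41 below 0. Turning the signs changed the side of 14 single members, among them Rpl13a (0.158), Rps15 (0.163), Rps19 (-0.36) and Rps2 (from 0.496 to -0.748), besides Rplp0 and Rpsa described below.

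By part of the ribosome, the lower scores lay in both subunits. Of the 41 large subunit genes, 38 were below 0 (median -0.334), and of the 23 small subunit genes, 18 were (median -0.195). Rpl19, a large subunit protein near the polypeptide exit that also contacts the small subunit, scored from -0.286 through 0.262 to 0.712 in CHF and from 0.238 through 1.03 to 1.46 in CON. Its difference was -0.663 ± 0.269 (SE, n = 6 and 6; limma adjusted p = 0.477). Rpl37a, a zinc-binding protein of the large subunit, scored from -0.547 through -0.0785 to 0.941 in CHF and from 0.123 through 0.892 to 1.39 in CON. Its difference was -0.709 ± 0.304 (limma adjusted p = 0.519). In both genes the upper CHF arrays lay within the CON range, so the shift was one of the group and not of every array.

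Rpl5 and Rpl11, which bind 5S RNA and hold the p53 regulator Mdm2 when ribosome assembly fails, had unlike values. Rpl5 scored from -0.533 through 0.223 to 0.972 in CHF and from 0.328 through 0.88 to 1.20 in CON, a difference of -0.568 ± 0.281 (limma adjusted p = 0.601). Rpl11 scored from -0.558 through 0.459 to 0.894 in CHF and from -0.357 through 0.139 to 0.661 in CON, a difference of 0.0543 ± 0.297 (limma adjusted p = 0.974). Whether these 2 differences differ from each other was not tested.

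Around the polypeptide exit, 7 of 8 measured genes were below 0 (median -0.355). Rpl26, a protein at the rim of the tunnel, had a difference of -0.742 ± 0.414 (limma adjusted p = 0.64), with CHF arrays from -2.07 to 0.469 and CON arrays from -1.09 to 1.23. CHF right 12 supplied the -2.07. Rpl39, which lines the tunnel, was the exception at 0.153 ± 0.213 (limma adjusted p = 0.879), and its CHF arrays (-0.51 to 0.124) spanned those of CON (-0.38 to -0.072). Rpl24, a protein of the bridge between the subunits, scored from -0.432 through 0.188 to 1.12 in CHF and from 0.295 through 0.764 to 2.58 in CON (difference -0.727 ± 0.389, limma adjusted p = 0.635). Of the others with small p-values, Rpl29 had a difference of -0.597 and Rpl10a of -0.601 (limma adjusted p = 0.623 and 0.64).

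Among the catalytic and late-joining proteins of the large subunit, Rpl3, which reaches the peptidyl transferase centre, differed by -0.128 ± 0.26 and Rpl10, which joins last in the cytoplasm, by -0.422 ± 0.291. Rpl38, known for its part in the translation of homeobox mRNAs, differed by -0.417 ± 0.366, and Rpl13a, known for silencing inflammatory mRNAs once released from the ribosome, by -0.175 ± 0.234. The smallest limma adjusted p of these 4 was 0.725 (Rpl10), and in each the CHF and CON arrays overlapped.

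In the small subunit, Rps3, which lines the mRNA entry channel, scored from -1.96 through -0.288 to 0.584 in CHF and from -1.43 through 0.447 to 1.16 in CON. Its difference was -0.806 ± 0.464 (limma adjusted p = 0.658), with CHF 12 and CON 21 the lowest arrays of their groups. Rps16 differed by -0.737 ± 0.401 and Rps27, a zinc-finger protein, by -0.602 ± 0.33 (limma adjusted p = 0.64 for both). Rps6, the S6 kinase substrate, scored from 0.147 to 1.44 in CHF and from 0.537 to 1.58 in CON, a difference of -0.141 ± 0.292 (limma adjusted p = 0.917). Rps15, a protein of the head, differed by -0.144 ± 0.256. Rps19 and Rps14, both known from human anaemias of ribosomal origin, differed by 0.00633 ± 0.369 and -0.195 ± 0.475. Over the head proteins as a list, 8 of 10 were below 0, with a median of -0.124 close to that of all features.

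In HYP against CON right ventricle most members again scored below the control, and none passed the test. The difference was below 0 in 57 of 67 members (85.1%), against 56.2% of all features, with a median of -0.184 against -0.0456 over all features. Single genes ranged from -0.543 to 0.261. No member had a limma adjusted p below 0.05, while 9 features did (0.281%), and at an unadjusted p below 0.05 there were 0 members and 4.1% of all features. The comparison uses the same 6 CON arrays as the one above, so the 2 sets of differences are not independent. None of its arrays was among those turned, though HYP right 4 had a median r of -0.0321 with the right ventricle arrays. Without HYP right 5 the median was -0.11, and with array weights -0.119 with 42 of 67 below 0.

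The genes with the smallest p-values in HYP were again mostly of the large subunit. Rpl36 scored from -0.771 through -0.303 to 0.136 in HYP and from -0.688 through 0.252 to 1.03 in CON, a difference of -0.423 ± 0.275. Rpl19 scored from -0.383 through 0.694 to 0.824 in HYP, a difference of -0.36 ± 0.269, and only HYP 5 lay below all CON arrays. The stalk protein Rplp1 differed by -0.384 ± 0.353, Rpl14 by -0.285 ± 0.245, Rpl17 by -0.543 ± 0.493, Rpl18 by -0.275 ± 0.266 and Rpl37l1 by -0.324 ± 0.311. Rpl39 was again above 0 at 0.215 ± 0.213. All of these had a limma adjusted p of about 1.

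**Figure D2:**
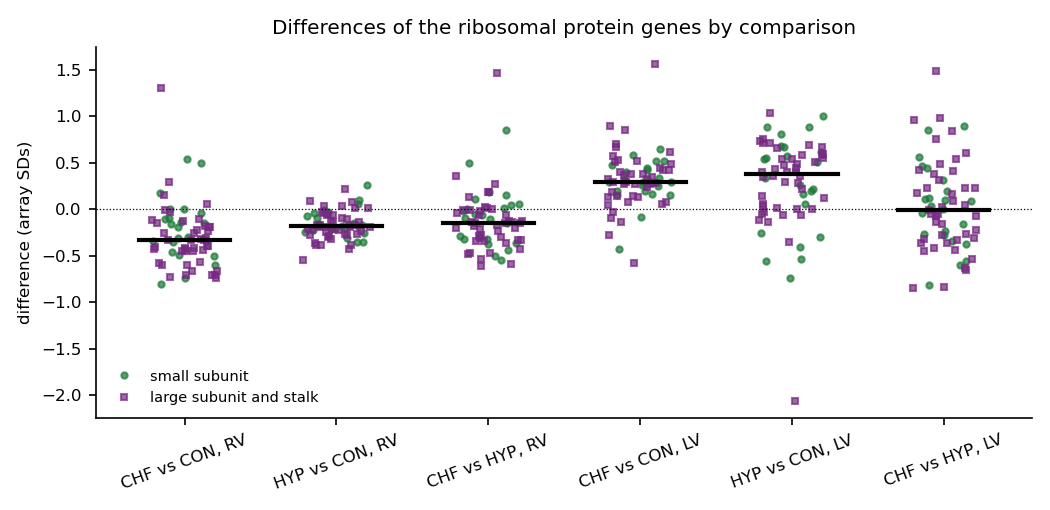
Differences in array SDs of the single ribosomal protein genes in 3 right ventricle and 3 left ventricle comparisons. Circles are small subunit genes, squares large subunit and stalk genes, and a black bar is the median, at -0.33, -0.184 and -0.143 in the right ventricle and 0.296, 0.381 and -0.00525 in the left; comparisons of 1 ventricle share arrays.

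CHF against HYP right ventricle asks whether the 2 monocrotaline groups differ from each other. Here 49 of 67 members were below 0 (73.1%) against 54.5% of all features, with a median of -0.143 against -0.0442. No feature of the table had a limma adjusted p below 0.05 (0%), 158 features were below 0.05 unadjusted (4.94%), and no member was. Rpl5 had the smallest p: its HYP arrays ran from 0.216 through 0.967 to 1.26, and the difference was -0.531 ± 0.281 (limma adjusted p = 0.938). Rpl37a differed by -0.468 ± 0.304, Rpl24 by -0.589 ± 0.389, Rpl26 by -0.607 ± 0.414, Rps13 by -0.433 ± 0.323 and Rps16 by -0.497 ± 0.401. With the sign turned on CHF 10 and 14, 47 members were below 0 with a median of -0.151. Without these arrays the median was -0.0542 with 38 below 0, and with array weights -0.026 with 35 below 0. Turning the signs changed the side of 24 single members. Leaving out HYP right 1 gave a median of -0.0553 and leaving out HYP right 4 gave -0.247.

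Rplp0, Rplp1 and Rplp2 form the acidic stalk that recruits the elongation factors. Rplp0 was measured on 5 CHF arrays and scored -0.729, 3.91, -3.34, 4.76 and -1.35 on CHF 9, 10, 11, 14 and 15. Its CON arrays ran from -3.33 through -0.392 to 1.33 and its HYP arrays from -2.99 through -0.182 to 1.15. The high scores were those of the 2 CHF arrays whose direction is in doubt, and arrays near -3 occurred in all 3 groups. The CHF minus CON difference of 1.30 ± 1.27 (n = 5 and 6; limma adjusted p = 0.807) was therefore no larger than this spread, and its direction is not settled. Turning the signs gave -2.17 ± 0.908 (limma adjusted p = 0.445), and without CHF 10 and 14 it was -1.16 ± 1.01. Rplp1 and Rplp2 differed by -0.583 ± 0.353 and -0.39 ± 0.305 (limma adjusted p = 0.68 and 0.745), and by -0.358 and -0.144 with the signs turned.

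Rpsa, the 40S protein also known as the laminin receptor, had 2 probes that disagreed. One gave a CHF minus CON difference of -0.078 and right ventricle scores from -1.42 to 0.229. The other gave 1.29 and scores from -4.43 on HYP 8 to 3.82 on CHF 14. Their average scored from -2.55 through -0.876 to 2.001 in CHF and from -2.50 through -0.809 to -0.132 in CON, a difference of 0.543 ± 0.655 (limma adjusted p = 0.85). Turning the signs gave -0.446 ± 0.481 and leaving out CHF 10 and 14 gave -0.414 ± 0.554, so its direction is not settled either. The sign of its CHF minus HYP difference, 0.855 ± 0.655, depended on the probe and the doubtful arrays: it was -0.151 when 1 probe was kept, -0.134 with the signs turned and -0.103 without the doubtful arrays. Rpsa had the largest SD within right ventricle groups of the 64 members with complete values (1.23), followed by Rps2 (1.06) and Rpl13 (1.03). Rps2 and Rpl13, too, were highest on CHF 14, at 2.21 and 1.18. With the signs turned the SDs of these 3 were 0.885, 0.768 and 0.827, and without CHF 10 and 14 they were 0.928, 0.741 and 0.881; Rpl30l2 then had the largest (0.951 and 0.943). The steadiest members were Rpl39 (0.277), Rpl21 and Rpl13a (both 0.335), and Rpl39 was also the steadiest with the signs turned (0.258) and without those arrays (0.25).

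Within the right ventricle groups, most members went up and down together from array to array. After the group means were taken off, the median Pearson r over pairs of the 64 members was 0.33, with 70.3% of pairs above 0. Over all 1656 features with complete values the median was 0.0401, with 53.2% above 0. The median was 0.253 among small subunit genes, 0.343 among large subunit genes and 0.302 between subunits. Without CHF 10 and 14 it was 0.321 for the members and 0.038 for all features. These are descriptions over 18 arrays, whose shared scale, labelling and centring enter every gene alike.

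Rps27 followed the mean of the other members most closely (r = 0.925), then Rpl4 (0.846), Rpl37a (0.816), Rpl5 (0.811) and Rpl18 (0.81). Of 64 members, 34 had r above 0.5. Rps2, Rpsa and Rpl39 were the 3 with r below 0 (-0.0413, -0.0846 and -0.15), and without CHF 10 and 14 only Rpl39 of these 3 stayed below 0 (-0.253). Split by the start tract shown above, the 22 genes with a tract at the first base had a median CHF minus CON difference of -0.277 (20 below 0) and the 34 without had -0.336 (28 below 0). The difference between these medians was not tested.

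**Figure D3:**
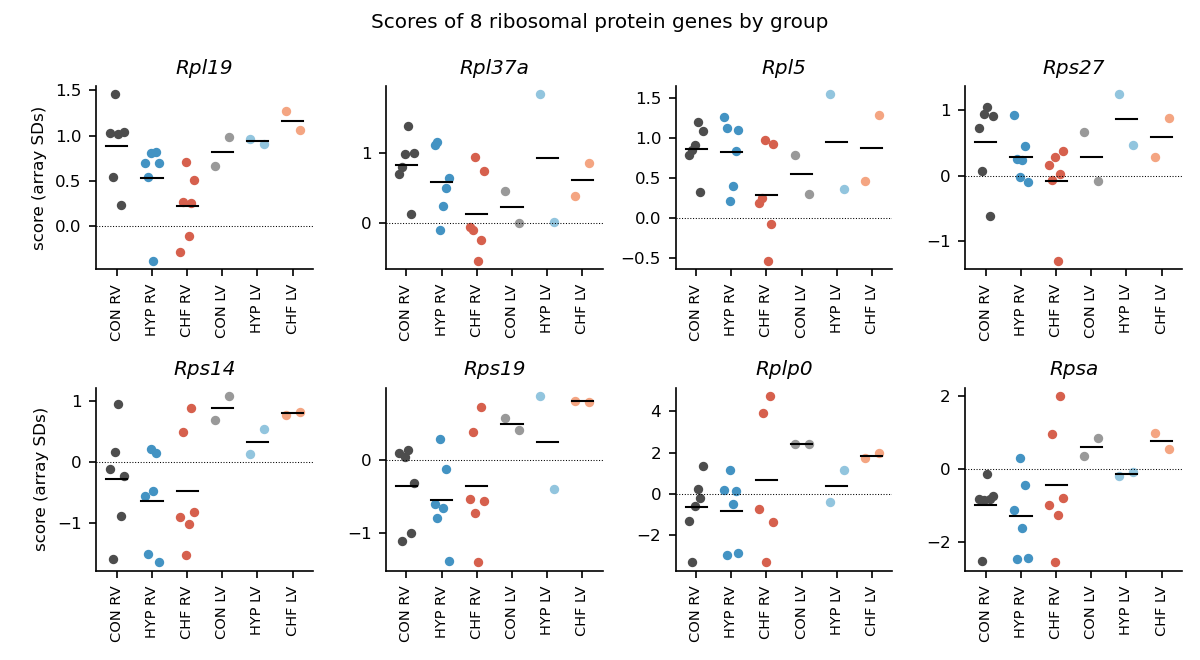
Scores in array SDs of 8 ribosomal protein genes by group; each point is an array and each bar a group mean, 6 arrays per right ventricle (RV) group, with Rplp0 on 5 in CHF, and 2 per left ventricle (LV) group. Rpl19, Rpl37a, Rpl5 and Rps27 have lower CHF than CON means in the right ventricle, while Rps14 and Rps19 have higher means in the left ventricle in every condition; the y axes differ.

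In the left ventricle, most members scored above rather than below their control, with 2 arrays a group. In CHF against CON, 59 of 66 members were above 0 and 7 below (10.6%, against 50.2% of 2494 features), with a median of 0.296 against -0.002. Both CHF arrays were above both CON arrays in 30 of 66 members (45.5%), where this held for 14.6% of all features. No feature had a limma adjusted p below 0.05 (0%), 22 were below 0.05 unadjusted (0.882%) and no member was. Rpl24 scored 0.75 and 1.07 on CHF left 9 and 15 against 0.18 and -0.06 on CON left 21 and 22, a difference of 0.85 ± 0.644 (n = 2 and 2; limma adjusted p of about 1). Rplp1 scored 0.964 and 0.88 against 0.51 and 0.11, and Rps16 0.455 and 0.74 against 0.1 and -0.21. Rps14 did not follow, with 0.775 and 0.82 in CHF between the 0.69 and 1.08 of CON. With the sign turned on CHF left 9 and CON left 21 and 22, 52 members were above 0 with a median of 0.271 (over all features -0.0503). The differences of Rpl24, Rplp1, Rps16 and Rps14 were then 0.22, 0.268, 0.0875 and 0.908, and 19 of 66 members changed side. The family median of CHF left 9 became -0.385, below the -0.36 and -0.09 of CON left 21 and 22. Only CHF left 15 (0.575) then stood above them. As deposited, the median difference was 0.196 without CHF left 15 and 0.432 without CON left 21.

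HYP against CON left ventricle had 51 of 66 members above 0 and 15 below (22.7%, against 47.4%), with a median of 0.381. Both HYP arrays were above both CON arrays in 15 members (22.7%), against 16.9% of all features. No feature passed (limma adjusted p below 0.05 in 0%, with 46 features, or 1.84%, and no member below 0.05 unadjusted). The 2 HYP arrays stood apart: Rpl10 scored 2.27 on HYP left 3 and 0.604 on HYP left 5, Rplp1 2.16 and -0.674, and Rps3 2.02 and -0.366. Without HYP left 3 the median was -0.0745 and without HYP left 5 it was 0.798, so the direction rests on 1 array. With the signs turned, 55 members were above 0, the median was 0.691 and 18 of 66 members changed side. CHF against HYP left ventricle had 33 members on each side (median -0.00525, 49.2% of all features below 0), 0% of features passing by limma's adjusted p, and 60 below 0 with the signs turned. In that comparison 75 features (3.01%) and no member were below 0.05 unadjusted, and the median ran from -0.437 without HYP left 5 to 0.28 without HYP left 3.

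Right against left ventricle, averaged over the 3 conditions, gave the only calls. Rps19 and Rps14, both of the small subunit, were lower in the right ventricle. They are 2 of 66 members (3.03%), where 457 of 2494 features had a limma adjusted p below 0.05 (18.3%). Rps19 scored from -1.41 through -0.555 to 0.723 on the 18 right ventricle arrays and from -0.403 through 0.68 to 0.875 on the 6 left ventricle arrays, a difference of -0.931 ± 0.291 (limma adjusted p = 0.0334). Rps14 scored from -1.64 through -0.511 to 0.94 on the right and from 0.127 through 0.733 to 1.08 on the left, a difference of -1.13 ± 0.36 (limma adjusted p = 0.0351). In both, some right ventricle arrays, CHF 10 and 14 among them, reached the left ventricle range.

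Both calls rest on few left ventricle arrays and on the direction of arrays in doubt. With the sign turned they were -0.457 and -0.437 (limma adjusted p = 0.456 and 0.534), and no feature of the table was called. CHF left 9 and CON left 21 and 22 were among the arrays turned. A left array can also correlate low with right arrays because the ventricles differ, and turning it then shrinks that difference. The turned fit therefore cannot decide whether the calls hold. With array weights 21 of 66 members and 1080 of 2494 features were called, a smaller share of the members than of all features. No member was called without CHF left 9, CHF left 15, CON left 21 or CON left 22, in turn. Without CHF right 14, 8 were called (the share of all features in that fit is not given here). Rps19 was also lost without HYP left 3 (limma adjusted p = 0.124), and Rps14 without HYP left 3 or 5 (0.0625 and 0.0832), HYP right 3 (0.0507) or CHF right 9 (0.0506). In these fits the differences stayed between -0.719 and -0.958 for Rps19 and between -1.07 and -1.20 for Rps14. The members showed no common side: 38 of 66 were below 0 (57.6%, against 48% of all features), with a median of -0.0966, and of the 64 without a call 36 were below 0. That median was 0.178 with the signs turned, 0.0671 without centring and 0.0901 without HYP left 3. At an unadjusted p below 0.05, 9 members were lower (13.6% against 15.7%) and 4 higher (6.06% against 20.4%).

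Of the other members with small p-values, Rpsa differed by -1.31 ± 0.497 (limma adjusted p = 0.0672). Rps27l, the paralog of Rps27 known as a p53 target, was on the other side: it scored from -1.17 through -0.0313 to 0.908 on the right and from -1.15 through -0.762 to -0.464 on the left (0.723 ± 0.279, limma adjusted p = 0.0717). Rpl39 scored from -0.548 through -0.138 to 0.629 on the right and from -1.18 through -0.563 to 0.001 on the left (0.433 ± 0.177, limma adjusted p = 0.0848). With the signs turned these last 2 differences were -0.0184 and -0.0969.

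**Figure D4:**
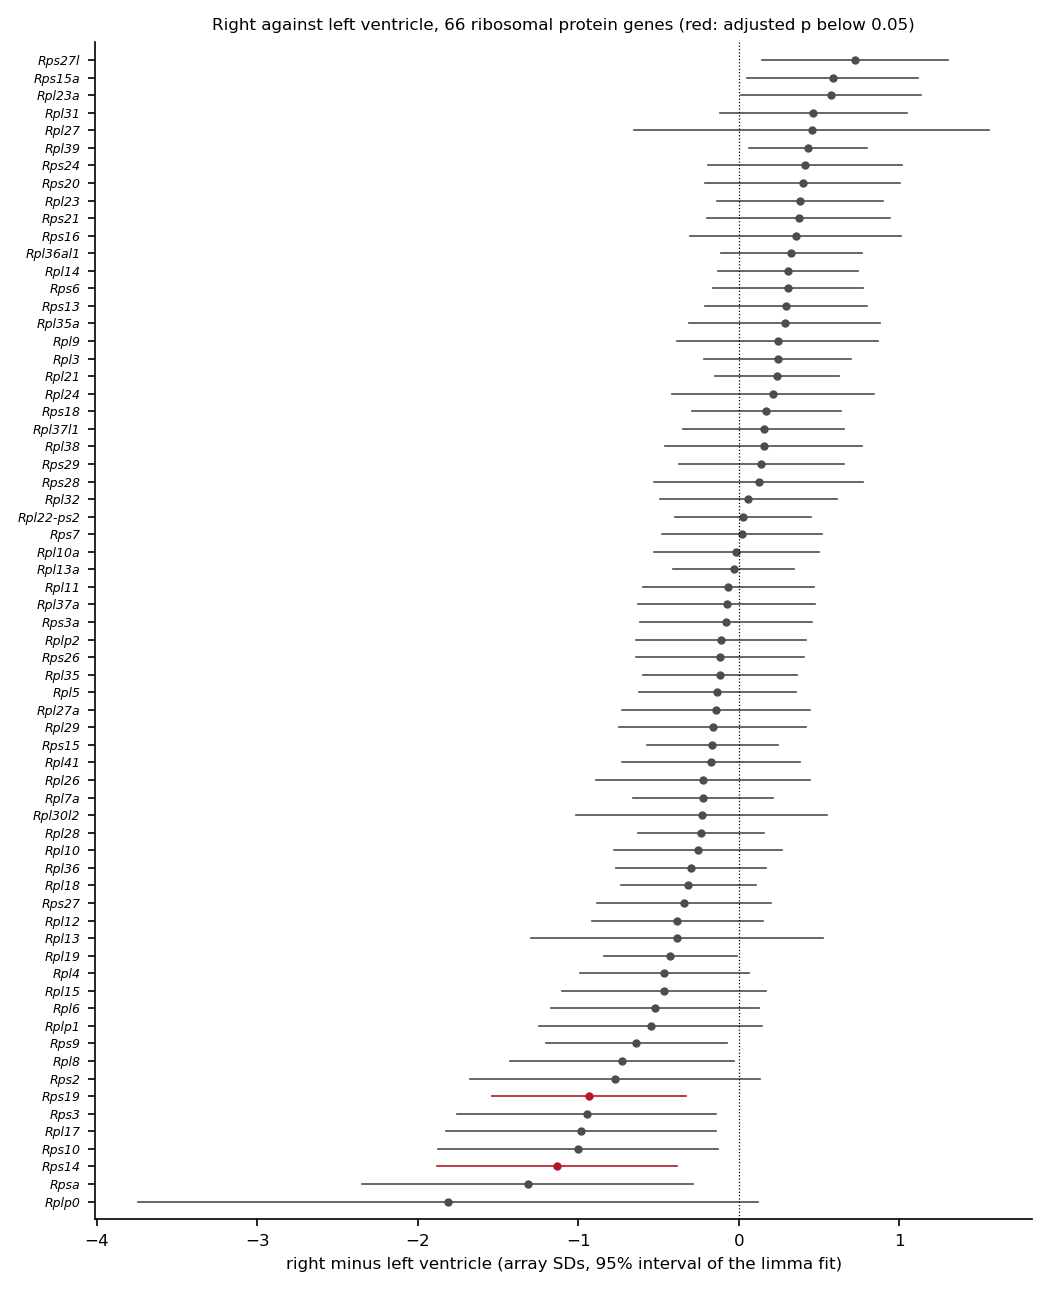
Right minus left ventricle difference of 66 ribosomal protein genes, averaged over the 3 conditions, in array SDs, with the 95% interval of the limma fit; genes are sorted by difference and red marks an adjusted p below 0.05. Rps19 (-0.931) and Rps14 (-1.13) are the red genes, and 38 of 66 points lie below 0.

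The erythrocyte markers moved with the ventricle. All 3 measured (Hbb, Hba-a1 and Alas2, of 5 listed) were called lower in the right ventricle, with a median difference of -5.89, though with the signs turned no feature was called. The median over the 3 markers ran from -7.35 to -0.984 on the right ventricle arrays and from -7.40 on HYP left 3 to 5.36 on HYP left 5 on the left. HYP left 3, the one left ventricle array at the right ventricle's level, was also the array with the highest ribosomal protein median (1.03). Their part in the differences of Rps19 and Rps14 was not tested. The cardiomyocyte markers (7 of 9 measured) had no call and medians of -0.507 in this comparison and -0.477 in CHF against CON right ventricle. In bulk tissue fewer cells of a type and less RNA per cell cannot be told apart.

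Split by condition, the order of the ventricles was not the same. In CON, 49 of 66 members were above 0, that is higher in the right ventricle, with a median of 0.354 and 45.1% of all features below 0. In CHF, 48 of 66 were below 0 (72.7% against 50.9%), with a median of -0.36, and in HYP 48 were below 0 (72.7% against 48%), with a median of -0.246. No member was called by limma's adjusted p in any condition, while 0.962% of features were in CON, 0.2% in CHF and 0.0802% in HYP. In CHF, all right ventricle arrays lay below both left ventricle arrays in 11 members (16.7% against 8.02%). Rpl19 was among the lowest p-values there, with right ventricle scores from -0.286 to 0.712 below the 1.27 and 1.06 of CHF left 9 and 15 (difference -0.938 ± 0.348, limma adjusted p = 0.233); with the sign of CHF 10, CHF 14 and CHF left 9 turned it was 0.156 ± 0.465. In CON, Rps15a had scores from 0.474 to 1.92 on the right and of 0.08 and -0.14 on the left (1.08 ± 0.443, limma adjusted p = 0.22). With the sign turned on the doubtful arrays the CHF median became 0.177 with 23 below 0, and the CON median 0.76. In that CON fit 3 members were called (the share of all features is not given here). The HYP median was 0.211 without HYP left 3.

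The difference of these differences was tested as an interaction. The CHF minus CON difference was lower in the right than in the left ventricle in 62 of 66 members (93.9%), against 60.5% of all features, with a median of -0.615 against -0.133. No feature had a limma adjusted p below 0.05 (0%), and 68 features (2.73%) and 1 member were below 0.05 unadjusted. That member was Rpl24, at -1.58 ± 0.743 (limma adjusted p of about 1), followed by Rpl19 at -1.01 ± 0.492. Turning the signs gave -0.73 ± 0.77 and -1.55 ± 0.658 for these genes, and 53 of 66 members were then below 0 (53.3% of all features) with a median of -0.695. For HYP, 56 of 66 were below 0 (84.8% against 55.6%) with a median of -0.497, no feature passed (0%; 62 features, or 2.49%, and no member below 0.05 unadjusted), and the median was -0.0374 without HYP left 3. With the signs turned it was -0.849, with 57 below 0. The CON arrays of both ventricles enter both effects.

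The rest of the translation machinery showed no called change between right ventricle conditions. In CHF against CON none of 14 tested initiation factors, 5 elongation factors, 9 ribosome biogenesis genes, 10 genes of growth signalling to the ribosome and 3 mitochondrial ribosomal proteins had a limma adjusted p below 0.05. Over all features 0.907% were called there, so the absence of calls does not set these lists apart. Of the initiation factors 13 of 14 were below 0 (median -0.21), and of the mitochondrial ribosomal proteins all 3 were (median -0.249). Of all features 58.8% were below 0. Values of these lists with the sign turned on CHF 10 and 14 are not given here. In HYP against CON the same lists had no call either (0.281% of all features), and 7 of the 14 initiation factors were below 0 (56.2% of all features). Between the ventricles Eef1a1, the factor that brings aminoacyl-tRNA to the ribosome and whose mRNA carries the same start tract, was called lower in the right ventricle (-2.29). Ncl, the nucleolar protein nucleolin, was called higher there, and growth signalling (Rheb and Tsc2) and the mitochondrial ribosome (Mrpl17 and Mrps24) each held 1 call in each direction. Over all features 18.3% were called in that comparison, and none of these calls was made with the signs turned.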

How the data were processed

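The authors' deposited table gives 1 signed score per probe and array, and how it was made (background, dyes, scaling, filters, software) is not given in the sources. By the values, scores have mean near 0 and SD near 1 per array. Probes were named through the platform annotation, by Entrez ID where possible (67 of 68 members), and probes of 1 symbol were averaged. Each array was centred on its median. Groups were compared with limma 3.58.1 in R 4.3.3 (lmFit and eBayes), right ventricle comparisons on 18 arrays (3199 features), others on 24 arrays in 6 groups (2494 features), requiring 2 values per group, with Benjamini-Hochberg adjustment over all features and a threshold of 0.05. The procedure was tested on simulated data. The number of arrays limits the precision. Of 4803 probes, 521 had no symbol and 4 had several. Members and lists were chosen with earlier results of these data known. Named genes are the 8 smallest p-values per right ventricle comparison, the 5 smallest between ventricles and all calls. Members with a role of their own and the 3 largest and smallest SDs are named as well. Rpl4, Rps15a and Rpl30l2 lie outside this rule and were chosen after their values were seen. Array numbers shared between ventricles were not taken to pair the arrays, since the labels do not say so. Deviations from group means correlated above 0.1 in 3 of 6 same-numbered pairs (-0.297 to 0.416). In these 3 pairs, HYP 3, HYP 5 and CHF 15, no other right array of the condition had a higher r. The consensus correlation of same-numbered arrays was 0.239. Whether the numbers pair the arrays is not settled, and the fit between ventricles treats all arrays as independent. The 3 below were those whose left array is in doubt. With 2 left arrays a group, their deviations from the group mean are equal in size and opposite in sign, so the 6 values are not separate checks. Turning leaves the HYP pairs unchanged and can only change the sign of the CON pairs. That 3 of 6 were again above 0.1 with signs turned therefore decides nothing. Alternatives were other scalings, turned signs, stricter and looser filters, array weights, 1 probe per gene, doubtful arrays or single arrays left out, 2 groups alone and the number as a block. Comparisons of the 2 ventricles within a condition and of effects between them, as summaries, were added after seeing the data.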

Additional observations from a re-analysis of the deposited data

Results flagged for a closer look

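The named genes and the family median were checked in each right ventricle group, and 8 of 105 combinations had 1 array far from the other 5. Chance flags about 1 in 20 independent checks, and these share arrays and members that move together. In CHF right ventricle these were 3 scores of CHF 12, the array with the fewest values: Rpl26 at -2.07, Rpl29 at -0.826 and Rps27 at -1.31. In CON right ventricle they were CON 21 for Rpl3 (-0.704) and Rps3 (-1.43), and CON 18 for Rpsa (-2.50). In HYP right ventricle they were HYP 5 for Rpl19 (-0.383) and HYP 4 for Rps6 (-0.028). All 8 were the lowest array of their group.

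For 6 genes the arrays of the 2 ventricles stood on opposite sides of their CON mean in CHF, every array of one ventricle against every array of the other. Only the named genes and the family median were checked, not all members or all features. Of these genes, Rpl10a, Rpl19, Rps16 and Rps27 were named for their small p-values in CHF against CON right ventricle, which use the same arrays. The count is therefore no share of the family. The right minus left difference of the CHF effect was -0.847 for Rpl10, -1.09 for Rpl10a, -1.01 for Rpl19, -1.03 for Rpl26, -1.39 for Rps16 and -0.898 for Rps27. For Rpl19 this also held in HYP, at -0.477. All 5 arrays whose direction is in doubt enter the CHF pattern. With their signs turned it held for none of the 6 genes in CHF, and the differences were -1.68, -0.446, -1.55, -1.19, -0.776 and -1.17 in the same order; for Rpl19 in HYP it still held, at -2.12. That every array stood so was not tested; in the interaction fit, which tests the difference itself, no adjusted limma p of these genes was below 0.05.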

How the results depend on the processing

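All right ventricle comparisons between conditions had 0 member calls under each alternative run. Between ventricles, the member calls were 5 without centring, 0 with the signs turned, 21 with array weights, 28 with the replicate block over 6 same-numbered pairs (2097 features) and 11 with the number as a random block, and 0 to 8 when 1 array was left out (median -0.132 to 0.0901). Within CHF they were 15 with array weights, and within CON 11 with array weights and 3 with turned signs. The share of all features called in the same fits is not given beside these counts, so they do not set the members apart. In the main fit between ventricles, 3.03% of members and 18.3% of all features were called. With turned signs the CHF against HYP left ventricle median was -0.443, the CHF right against left median 0.177 (reversed) and the CON right against left median 0.76. Turned signs changed the side of 14 of 67 members in CHF against CON right ventricle, 24 in CHF against HYP right ventricle and 21 of 66 between ventricles. These included Rplp0 (-2.17) and Rpsa (-0.446) in the first, and Rpsa in CHF against HYP right ventricle (-0.134 turned, -0.151 with 1 probe, -0.103 without doubtful arrays) and Rps27l (-0.0184) and Rpl39 (-0.0969) between ventricles with turned signs. Leaving out 1 array gave medians of 0.196 to 0.432 for CHF against CON left ventricle, -0.0745 to 0.798 for HYP against CON left ventricle, -0.437 to 0.28 for CHF against HYP left ventricle, -0.541 to 0.211 for HYP right against left, and -0.916 to -0.0374 for the HYP effect between ventricles. Leaving out the doubtful arrays could not be fitted where CON left ventricle is needed. Whether the numbers pair the arrays is not settled, so calls under the block are given as an alternative and not as a weaker or stronger effect. For the remaining alternatives the cause of a change was not tested. Signal over background is not given for these arrays.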
